A study of Mus musculus with 18 samples.

Results

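The genes described here are 51 members of the endoplasmic reticulum (ER) stress response and of the amino acid response governed by the transcription factor ATF4. They were listed by name from what is known of both pathways, with earlier results of these data known, and all 51 were found in the deposited table of 27179 genes. Of these, 50 averaged 10 or more normalized counts across the 18 libraries and were tested among 14353 genes in all. The ATF4 arm held 27 genes, all tested, and the ER chaperone arm held 24, of which 23 were tested. Derl3, which encodes a channel protein of ER-associated degradation, fell below the limit, with median normalized counts of 6.59 in the young, 6.18 in the old and 4.93 in the rejuvenated old group.

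Mesenchymal stem cells (MSCs) are stromal cells cultured from flushed bone marrow, here of C57BL6 mice that the study's methods describe as male. RNA was sequenced from 6 cultures of young MSCs (donors of 6 weeks), 6 of old MSCs (donors of 18 to 24 months), both untreated, and 6 of rejuvenated old MSCs, which were old MSCs that had shared a well with young MSCs. All cultures were primary cells of passage 2 to 5 kept for 7 days, old MSCs were seeded at 100000 cells, and the co-culture was across a Transwell membrane with pores of 0.4 µm that soluble factors pass and cells do not. Old MSCs paired with other old MSCs were not analysed here, so a second cell layer and the young age of its donors cannot be told apart. The labels name 6 biological replicates a group without saying how many mice stand behind them, so that the p-values measure the spread between these cultures.

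When unfolded proteins build up in the ER lumen, the membrane sensors IRE1 (Ern1), ATF6 and PERK (Eif2ak3) are activated. IRE1 splices the mRNA of Xbp1, and the factors XBP1 and ATF6 then switch on chaperones, disulfide isomerases and the machinery that returns misfolded proteins to the cytosol for degradation. PERK, and separately GCN2 (Eif2ak4), which senses uncharged tRNA during amino acid shortage, phosphorylate the translation factor eIF2, which slows bulk translation but favours translation of Atf4 mRNA. ATF4 in turn activates genes for amino acid synthesis, amino acid import and feedback on the pathway. MSCs secrete large amounts of collagen and other matrix proteins, which places a high load on the ER and on amino acid supply.

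The libraries held 22936251 to 29559194 reads on genes, with young libraries at the lower end (22936251 to 25648769), and values are reads divided by 1 size factor per library. All 12 marrow stromal cell markers differed between young and old MSCs, 4 higher and 8 lower in young MSCs. Of all genes tested, 85.7% were called in this comparison (41.6% higher and 44.1% lower). Cd44, Pdgfrb, Itgb1 and Col1a1 differed by less than 1 on the log2 scale, Ly6a by 2.02 and Pdgfra by 1.79. Eng (-5.48), Cxcl12 (-4.42), Lepr (-3.36) and Vcam1 (-2.79) were lower in young MSCs, and Nt5e (4.15) was higher. Thy1 had a median of 192 normalized counts in young MSCs and of 0.956 and 0.944 in old and rejuvenated old MSCs. Its highest library reached 3.23 in old and 21.6 in rejuvenated old MSCs. Of 8 endothelial markers 4 were tested. Cd34 (8.19, with medians of 7008 normalized counts in young and 22.9 in old MSCs), Kdr (3.23) and Tek (0.61) were higher and Vwf (-1.29) lower in young than in old MSCs. Cd34 ran from 19.4 to 28.0 in old MSCs and from 24.2 to 402 (median 39.1) in rejuvenated old MSCs. The source of the high values of Thy1 and Cd34 in rejuvenated old libraries was not tested. Pecam1 was not tested, as its mean of 9.72 lay below the limit of 10. Young MSCs had a median of 16.7 normalized counts of Pecam1 (11.7 to 22.9). For old MSCs its median was 6.40 (2.73 to 9.85), and rejuvenated old cultures had 4.79 (2.85 to 10.4). The median of Cdh5, Tie1 and Emcn, also untested, was at most 1.08 in every group. Of 12 macrophage markers, 11 were lower in young MSCs than in old MSCs and Aif1 was higher (0.70). The summed level of the 12 ran from 952 to 1073 normalized counts in young MSCs, from 14657 to 18233 in old MSCs and from 14459 to 17704 in rejuvenated old MSCs. Most of the sum in old MSCs was Lyz2 (8850 to 11490). Ptprc and Adgre1 were at 0 in all young libraries. Cd68 (395 to 480), Cd14 (192 to 264), Lyz2 (153 to 187) and Csf1r (101 to 134) were present in all of them. The part of these marker differences in the differences from young MSCs was not tested. In RNA from whole cultures, fewer cells of a type and less RNA per cell cannot be told apart. Between young and old MSCs the genes of whole chromosomes were also shifted, by a median log2 difference from all genes of -0.67 on chromosome 1, 0.63 on chromosome 7, -0.44 on chromosome 12 and -0.73 on chromosome 16, and their part in the results was not tested. The members on these chromosomes (Atf6, Nupr1, Atf5, Ppp1r15a, Pdia6, Dnajb9, Sel1l, Dnajb11 and Sdf2l1) are given below also relative to their chromosome.

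Target genes of both arms can be read through short promoter elements. Promoters of 300 bases (250 before and 50 after the start) from RefSeq for GRCm38.p6 (mm10) were found for 44 of the 51 members. These members had 49 promoters, and a member was counted if any of its promoters held the element. Shares of all promoters are per promoter, so the units differ. The C/EBP-ATF element, searched on both strands as TGATGNAAN, was present in 8 of 24 ATF4 arm members (33.3%), in 1 of 20 ER chaperone arm members (5.0%) and in 3.95% of all 32851 promoters. The ER stress element, CCAAT followed after 9 bases by CCACG, was present in 9 of 20 ER chaperone arm members (45.0%), in 0 of 24 ATF4 arm members and in 0.119% of all promoters. Its second form, ATTGG followed after 1 base by CCACG, stood in 0.0365% of all promoters and in those of Dnajb11 and Herpud1. The UPR element TGACGTG stood in 2.01% of all promoters and, among the members, in that of Hspa5. Such matches describe the letters and do not show binding. The members were listed from what is known of both pathways, so a high share among them may follow from that choice.

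The sequences below are those of the 3 members of each arm with such an element and the largest change between rejuvenated old and old MSCs, and capitals mark the fixed letters of the elements. Hspa5 (chr2:34772090-34776529) is shown with its UPR element at chr2:34771922-34771951 and its ER stress element at chr2:34772020-34772049, the latter inside an exon of a longer annotated Hspa5 transcript. Herpud1 is shown at chr8:94386276-94386427, with a C/EBP-ATF element and the second form of the ER stress element, within Gm15890 but in none of its exons, and Creld2 at chr15:88819480-88819578. These 3 genes lie on the plus strand.
Hspa5 UPR element: gggcgtagcaaTGACGTGagttgcggagga
Hspa5 ER stress element: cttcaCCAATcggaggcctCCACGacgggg
Herpud1: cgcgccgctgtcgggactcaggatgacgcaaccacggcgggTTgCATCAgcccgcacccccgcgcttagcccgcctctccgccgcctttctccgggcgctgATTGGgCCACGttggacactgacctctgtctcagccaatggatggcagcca
Creld2: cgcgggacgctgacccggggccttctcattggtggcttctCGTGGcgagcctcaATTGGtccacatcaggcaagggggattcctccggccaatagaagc

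From the ATF4 arm, Trib3 is shown at chr2:152344028-152344057 on the minus strand, in the first bases after the start. Chac1 is shown at chr2:119351008-119351096 on the plus strand, upstream of the gene. Vldlr is shown at chr19:27216779-27216867 on the plus strand, upstream of the RefSeq start used here but inside the annotated gene (chr19:27216480-27254231), which has an earlier start. Both stretches lie in no annotated exon. All 3 carry the C/EBP-ATF element on the strand opposite to transcription, so that it reads NTTNCATCA here.
Trib3: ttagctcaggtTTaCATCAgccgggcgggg
Vldlr: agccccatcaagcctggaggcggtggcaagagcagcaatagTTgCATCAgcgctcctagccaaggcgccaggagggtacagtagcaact
Chac1: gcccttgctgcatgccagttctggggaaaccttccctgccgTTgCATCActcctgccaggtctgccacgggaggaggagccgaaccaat

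In the ATF4 arm, co-culture with young MSCs was followed by higher levels of 23 of 27 genes, led by the kinase-like inhibitor Trib3, the lipoprotein receptor Vldlr and the glutathione-degrading enzyme Chac1, which rose 3.5-fold, 3.46-fold and 2.9-fold. Slc1a4 alone fell, and Eif2ak3, Eif2ak4 and Cbs were not called. The 24 calls made 88.9% of the arm, against 41.6% of all 14353 genes tested (21.0% higher and 20.6% lower), and the median log2 fold change of the arm was 0.41, against 0.01 over all genes. Young MSCs were higher than old MSCs in 26 of the 27 genes and lower in Cbs, with a median log2 fold change of 1.55, where 85.7% of all genes were called (41.6% higher and 44.1% lower) and their median was -0.02. Both comparisons use the same 6 old libraries. Without members on chromosomes 1, 7, 12 and 16, 20 of 24 genes were higher in rejuvenated old MSCs and 23 of 24 in young MSCs. The share of all genes off these chromosomes was not counted, so these counts have no matching background. Levels are normalized counts, changes are differences of log2(normalized count + 1) with their standard error (SE), and adjusted p-values are from limma over all genes.

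**Figure D1:**
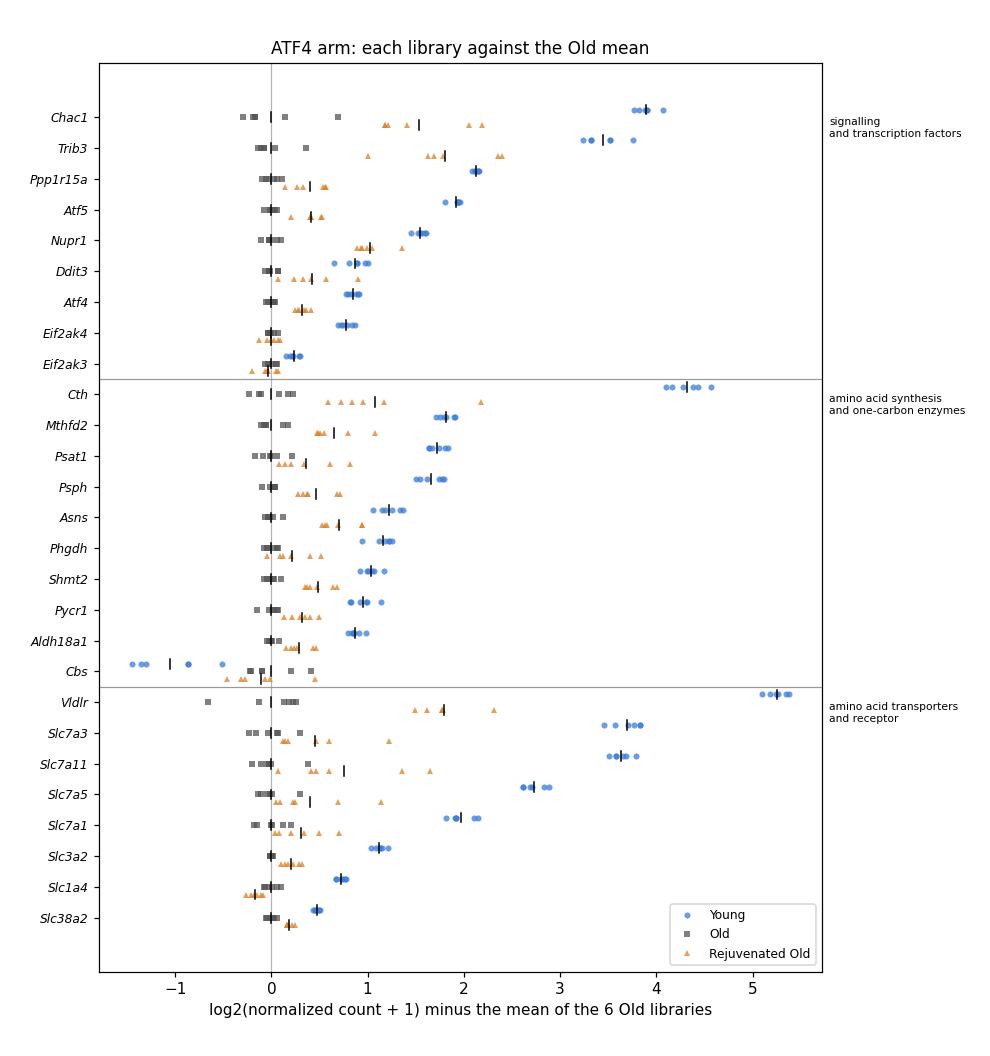
Each symbol is 1 library, placed by its log2(normalized count + 1) minus the mean of the 6 old libraries, for the 27 ATF4 arm genes sorted by role, with black ticks at the group means. Rejuvenated old libraries lie right of the old libraries for most genes and left of the young libraries, and Cbs has its young libraries on the left.

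The arm begins with the kinases that phosphorylate eIF2. Eif2ak3 (PERK) ranged over 869 to 950 (median 905) normalized counts in old MSCs, 793 to 952 (median 886) in rejuvenated old MSCs and 1014 to 1117 (median 1061) in young MSCs. Old and rejuvenated old MSCs overlapped, with a log2 difference of -0.04 ± 0.04 (adjusted p = 0.502), and young MSCs lay above both (0.23 ± 0.04 against old MSCs, adjusted p = 2.81e-05). Eif2ak4 (GCN2) spanned 892 to 961 (median 910) in old, 836 to 972 (median 925) in rejuvenated old and 1478 to 1674 (median 1563) in young MSCs. It differed by 0.00 ± 0.04 between rejuvenated old and old MSCs (adjusted p = 0.989) and by 0.77 ± 0.04 between young and old MSCs (adjusted p = 2.02e-14). The transcripts of both kinases thus overlapped between the groups of old cells. Exons of Eif2ak3 share 485 bases with Gm43292 on the opposite strand. These values are of mRNA, and the kinases act by phosphorylation, which was not measured.

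Atf4 itself, on which these kinases converge, had 3628 to 3871 (median 3810) normalized counts in old MSCs, 4479 to 5007 (median 4688) in rejuvenated old MSCs and 6461 to 7113 (median 6805) in young MSCs. The 3 groups did not overlap. Rejuvenated old MSCs exceeded old MSCs by 0.32 ± 0.03 on the log2 scale (adjusted p = 4.67e-08), and young MSCs by 0.85 ± 0.03 (adjusted p = 4.58e-17). Atf5, a related bZIP factor whose mRNA is regulated in the same way, showed 2534 to 2783 (median 2680) in old, 3088 to 3844 (median 3561) in rejuvenated old and 9341 to 10452 (median 10254) in young MSCs, again without overlap. Its log2 fold change was 0.41 ± 0.04 after co-culture (adjusted p = 8.91e-08) and 1.92 ± 0.04 in young MSCs (adjusted p = 2.15e-21), and relative to the median of chromosome 7 these were 0.35 and 1.31. Ddit3 (CHOP), the factor linked to cell death under lasting stress, ranged over 2563 to 2818 (median 2649) in old MSCs, 2817 to 4998 (median 3471) in rejuvenated old MSCs and 4210 to 5398 (median 4970) in young MSCs. Here the lowest rejuvenated old library (2817) lay just under the highest old library (2818), and the highest rejuvenated old library (4998) lay among the young. The log2 fold changes of Ddit3 were 0.42 ± 0.09 (adjusted p = 0.000799) and 0.87 ± 0.09 (adjusted p = 6.84e-09). Exons of Ddit3 share 7.64% of their bases with Mars on the opposite strand, and how strand was treated in the counting is not given in the sources used here.

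Trib3, which binds ATF4 and damps its activity, had 157 to 223 (median 164) normalized counts in old MSCs, 347 to 914 (median 577) in rejuvenated old MSCs and 1645 to 2346 (median 1863) in young MSCs. Every rejuvenated old library lay above every old library and below every young one. The log2 fold changes of 1.81 ± 0.16 (adjusted p = 1.1e-08) and 3.44 ± 0.16 (adjusted p = 4e-15) correspond to 3.5-fold and 10.9-fold. Chac1, which degrades glutathione, followed with 110 to 218 (median 119) in old, 306 to 618 (median 336) in rejuvenated old and 1842 to 2268 (median 2012) in young MSCs. It rose by 1.54 ± 0.17 after co-culture (adjusted p = 2.06e-07) and stood 3.89 ± 0.17 higher in young than in old MSCs (adjusted p = 7.32e-16), with no overlap. Nupr1, a small chromatin-associated stress protein, had 419 to 486 (median 449) in old, 839 to 1157 (median 887) in rejuvenated old and 1237 to 1374 (median 1333) in young MSCs, also without overlap. Its changes were 1.03 ± 0.06 (adjusted p = 7.39e-12) and 1.55 ± 0.06 (adjusted p = 7.5e-17), and 0.97 and 0.94 relative to chromosome 7. Ppp1r15a (GADD34), which directs the phosphatase that reverses eIF2 phosphorylation, rose by 0.40 ± 0.06 after co-culture (adjusted p = 1.43e-05) and was 2.13 ± 0.06 higher in young MSCs (1.52 relative to chromosome 7).

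Of the 10 enzymes of amino acid synthesis and one-carbon metabolism, 9 rose after co-culture and 9 were higher in young MSCs, Cbs being the exception in both. Of all genes, 21.0% rose after co-culture and 41.6% were higher in young MSCs. Asns, which makes asparagine, had 1772 to 2023 (median 1835) normalized counts in old, 2678 to 3570 (median 2882) in rejuvenated old and 3873 to 4795 (median 4320) in young MSCs. No libraries of different groups overlapped, and the changes were 0.70 ± 0.07 (adjusted p = 2.39e-08) and 1.22 ± 0.07 (adjusted p = 6.12e-14). The serine pathway runs from Phgdh through Psat1 to Psph. Phgdh rose by 0.21 ± 0.07 (adjusted p = 0.0202), Psat1 by 0.36 ± 0.09 (adjusted p = 0.0036) and Psph by 0.46 ± 0.07 (adjusted p = 1.8e-05). The old and rejuvenated old libraries overlapped for Phgdh and Psat1 but not for Psph, whose exons share 26.1% of their bases with Cct6a on the opposite strand. The call of Phgdh was lost without rejuvenated old library 1 (0.15, adjusted p = 0.0544) or library 3 (0.18, adjusted p = 0.0576). In young MSCs these 3 genes stood 1.16 ± 0.07, 1.72 ± 0.09 and 1.66 ± 0.07 above old MSCs.

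Mitochondrial one-carbon enzymes use the serine so made. Mthfd2 had 841 to 1023 (median 870) in old MSCs, 1258 to 1909 (median 1302) in rejuvenated old MSCs and 2974 to 3401 (median 3167) in young MSCs, without overlap. It differed by 0.65 ± 0.08 (adjusted p = 1.23e-06) and 1.81 ± 0.08 (adjusted p = 1.12e-15). Shmt2, which splits serine into glycine and a one-carbon unit, changed by 0.49 ± 0.05 (adjusted p = 1.45e-07) and 1.03 ± 0.05. The proline enzymes Aldh18a1 and Pycr1 rose by 0.29 ± 0.05 (adjusted p = 2.68e-05) and 0.32 ± 0.07 (adjusted p = 0.000602), and stood 0.87 ± 0.05 and 0.95 ± 0.07 higher in young MSCs.

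The transsulfuration pathway, which makes cysteine from homocysteine, was split. Cth, which carries out its last step, had 35.5 to 49.1 (median 41.5) normalized counts in old MSCs, 63.3 to 194 (median 78.8) in rejuvenated old MSCs and 734 to 1018 (median 861) in young MSCs. The groups did not overlap, and the changes were 1.07 ± 0.18 (adjusted p = 6.58e-05) and 4.32 ± 0.18 (adjusted p = 4.45e-16), the latter a 20-fold difference. The top rejuvenated old value came from library 1, which stood apart from the next at 95.1. Cbs, which carries out the first step, ran the other way between young and old MSCs, with 44.1 to 68.9 (median 48.2) in old and 18.2 to 35.8 (median 24) in young MSCs, a change of -1.06 ± 0.18 (adjusted p = 1.12e-05). Rejuvenated old MSCs, at 37.1 to 70.8 (median 45.9), overlapped old MSCs (-0.11 ± 0.18, adjusted p = 0.657).

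All 8 genes of amino acid uptake, with the receptor Vldlr, were called in both comparisons. Of all genes, 41.6% were called after co-culture and 85.7% between young and old MSCs. The old and rejuvenated old libraries overlapped for 4 of the 8, and the share of all genes that overlap was not counted. Vldlr, a lipoprotein and reelin receptor induced through ATF4, had 87.1 to 164 (median 154) normalized counts in old, 390 to 689 (median 473) in rejuvenated old and 4745 to 5759 (median 5301) in young MSCs. With 5.25 ± 0.13 (adjusted p = 1.62e-20, 38.1-fold) it had the widest gap between young and old MSCs of the 50 genes, and it rose by 1.79 ± 0.13 after co-culture (adjusted p = 3.4e-10). Slc7a11, the cystine importer, had 36.6 to 55.1 (median 41.2) in old, 44.4 to 134 (median 61.4) in rejuvenated old and 491 to 596 (median 529) in young MSCs. Old and rejuvenated old MSCs overlapped, with changes of 0.76 ± 0.19 (adjusted p = 0.00264) and 3.63 ± 0.19 (adjusted p = 2.07e-14). Slc7a3, an arginine and lysine importer, had 98.5 to 143 (median 118), 127 to 272 (median 146) and 1290 to 1667 (median 1558) in the same order of groups. It overlapped likewise between the groups of old cells, with 0.45 ± 0.14 (adjusted p = 0.013) and 3.69 ± 0.14 (adjusted p = 5.6e-17), and without rejuvenated old library 1 its rise was 0.30 (adjusted p = 0.0219).

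Slc7a5 and Slc3a2 encode the light and heavy chain of the large neutral amino acid exchanger. Slc3a2 rose by 0.21 ± 0.04 (adjusted p = 6e-05) without overlap, while Slc7a5 rose by 0.41 ± 0.13 (adjusted p = 0.0161) with overlap, and by 0.26 (adjusted p = 0.0255) without rejuvenated old library 1. Young MSCs exceeded old MSCs by 1.12 ± 0.04 for Slc3a2 and by 2.73 ± 0.13 for Slc7a5. The importers Slc7a1 and Slc38a2 rose by 0.31 ± 0.09 (adjusted p = 0.0109) and 0.19 ± 0.03 (adjusted p = 6.51e-06). Slc1a4, which exchanges alanine, serine and cysteine, had 1662 to 1886 (median 1742) in old MSCs, 1461 to 1651 (median 1563) in rejuvenated old MSCs and 2784 to 3005 (median 2918) in young MSCs. It fell after co-culture (-0.17 ± 0.04, adjusted p = 0.000913) without overlap, although young MSCs stood 0.72 ± 0.04 above old MSCs.

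The ER chaperone arm showed smaller changes. After co-culture 10 of 23 genes were higher and 3 lower (56.5% called, median log2 fold change 0.07), against the 41.6% called over all genes. The abundant chaperone Hspa5, the co-chaperones Sdf2l1 and Manf, and Herpud1 and Creld2 led those that rose, and the sensor Ern1, the lectin Canx and the mannosidase-like Edem1 fell. Between young and old MSCs 19 genes were higher in young MSCs and 3 lower (95.7% called, median 0.52), against 85.7% of all genes. Off chromosomes 1, 7, 12 and 16, 9 of 17 genes rose and 3 fell after co-culture, with 15 higher and 1 lower in young MSCs. Here too the share of all genes off these chromosomes was not counted.

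**Figure D2:**
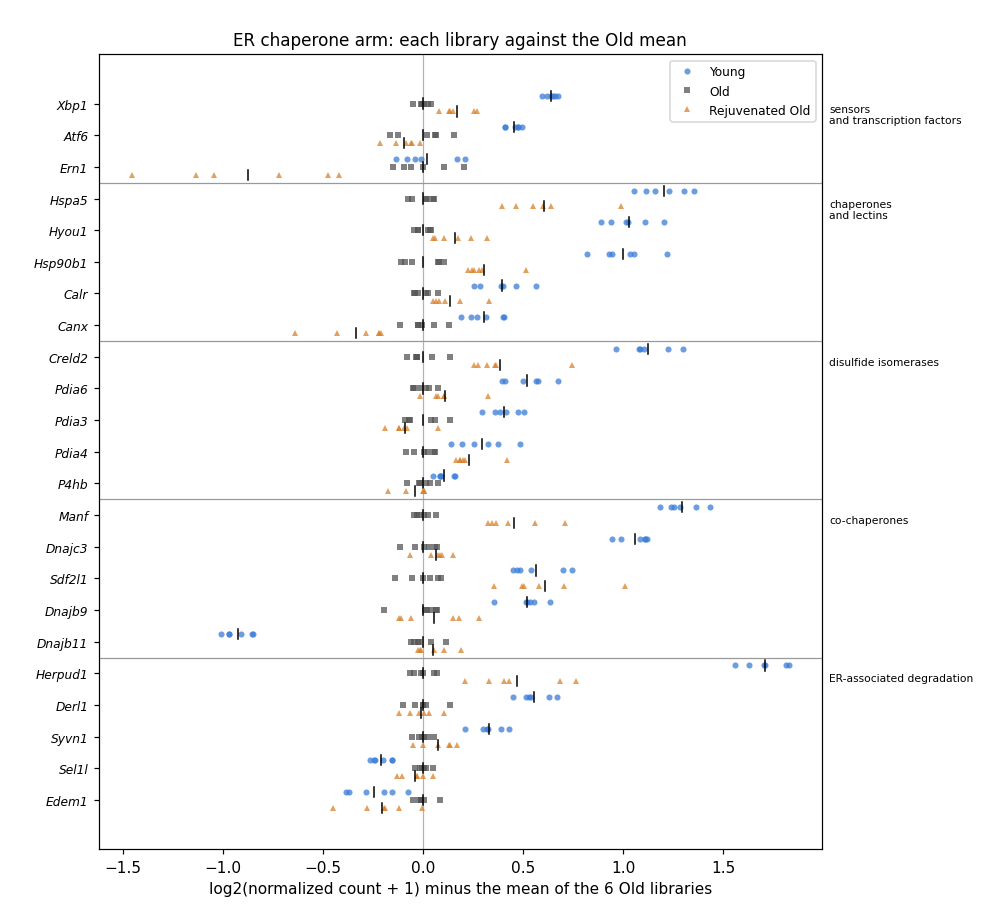
Each symbol is 1 library, placed by its log2(normalized count + 1) minus the mean of the 6 old libraries, for the 23 tested ER chaperone arm genes sorted by role, with black ticks at the group means. The rejuvenated old libraries of Hspa5, Manf, Sdf2l1 and Herpud1 lie right of the old libraries, those of Ern1 and Canx lie left of them, and many of the others overlap them.

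The sensors and factors of this arm did not move together. Ern1, which encodes the RNase sensor IRE1, had 269 to 344 (median 292) normalized counts in old MSCs, 108 to 223 (median 162) in rejuvenated old MSCs and 272 to 344 (median 293) in young MSCs. Rejuvenated old MSCs lay below both other groups without overlap, by -0.88 ± 0.13 against old MSCs (adjusted p = 1.48e-05) and -0.89 ± 0.13 against young MSCs (adjusted p = 1.58e-06), while old and young MSCs overlapped (0.02 ± 0.13, adjusted p = 0.899). Xbp1, the target of its RNase, had 2213 to 2353 (median 2291) in old, 2420 to 2764 (median 2528) in rejuvenated old and 3460 to 3657 (median 3582) in young MSCs. These did not overlap, and rose by 0.17 ± 0.03 (adjusted p = 0.000181) and 0.64 ± 0.03 (adjusted p = 8.31e-15). The table counts genes, so spliced and unspliced Xbp1 mRNA were not told apart. Atf6 had 920 to 1147 (median 1058) in old, 888 to 1018 (median 980) in rejuvenated old and 1368 to 1455 (median 1423) in young MSCs. It differed by -0.10 ± 0.05 after co-culture (adjusted p = 0.113), with a call without old library 4 (-0.12, adjusted p = 0.0489) or library 6 (-0.13, adjusted p = 0.0267). Young MSCs were higher by 0.45 ± 0.05 (adjusted p = 7.3e-09), and by 1.14 relative to chromosome 1.

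All 5 lumenal chaperones and lectins were called, 4 higher and 1 lower after co-culture and 5 higher in young MSCs. Of all genes, 41.6% were called after co-culture and 85.7% between young and old MSCs. Hspa5 (BiP), the HSP70 of the ER that also holds the sensors inactive, had 21988 to 24033 (median 23432) normalized counts in old, 30466 to 46020 (median 34488) in rejuvenated old and 48067 to 59216 (median 53091) in young MSCs. The groups did not overlap, and Hspa5 rose by 0.61 ± 0.07 (1.52-fold, adjusted p = 5.19e-07) and stood 1.20 ± 0.07 higher in young MSCs (2.3-fold, adjusted p = 2.48e-13). Hsp90b1 (GRP94), the HSP90 of the ER, had 27688 to 32144 (median 30147) in old, 34893 to 42664 (median 35933) in rejuvenated old and 52703 to 69499 (median 59326) in young MSCs. Its changes were 0.30 ± 0.06 (adjusted p = 0.000334) and 1.00 ± 0.06 (adjusted p = 2.99e-13), and its exons share 14.7% of their bases with 1810014B01Rik on the opposite strand. Hyou1, which exchanges nucleotide on BiP, had 3324 to 3516 (median 3429) in old, 3550 to 4276 (median 3777) in rejuvenated old and 6336 to 7899 (median 6943) in young MSCs. It rose by 0.16 ± 0.05 (adjusted p = 0.0126) and stood 1.03 ± 0.05 higher in young MSCs (adjusted p = 3.58e-15), both without overlap.

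The lectin chaperones that hold glycoproteins in the folding cycle diverged. Canx (calnexin), bound to the membrane, had 10027 to 11887 (median 10759) normalized counts in old MSCs, 6989 to 9392 (median 9136) in rejuvenated old MSCs and 12397 to 14391 (median 13309) in young MSCs. With -0.33 ± 0.06 after co-culture (adjusted p = 0.000135) and 0.30 ± 0.06 in young MSCs (adjusted p = 9.41e-05), rejuvenated old MSCs lay below both other groups. Its soluble counterpart Calr (calreticulin) overlapped between old and rejuvenated old MSCs, and its rise of 0.13 ± 0.05 (adjusted p = 0.036) passed the threshold narrowly. This call was lost under 11 other settings, with adjusted p-values from 0.0533 to 0.453, among them the omission of rejuvenated old library 3 (0.10, adjusted p = 0.106).

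Of the 5 disulfide isomerases and related proteins, Creld2 and Pdia4 rose after co-culture and the others overlapped. That made 2 calls among 5 genes, where 41.6% of all genes were called after co-culture. Creld2, a secreted stress-induced protein grouped here with the isomerases, had 1275 to 1482 (median 1321) normalized counts in old, 1608 to 2260 (median 1705) in rejuvenated old and 2633 to 3321 (median 2882) in young MSCs. No groups overlapped, and the changes were 0.39 ± 0.07 (adjusted p = 8.09e-05) and 1.12 ± 0.07 (adjusted p = 2.73e-13). Pdia4 rose by 0.23 ± 0.05 (adjusted p = 0.00105), close to its excess in young MSCs (0.29 ± 0.05). Pdia3, which works with the lectins, Pdia6 and P4hb, the main isomerase, showed -0.09 ± 0.05, 0.11 ± 0.05 and -0.04 ± 0.04, with adjusted p-values of 0.135, 0.0852 and 0.375. Pdia3 was called lower without rejuvenated old library 3 (-0.12, adjusted p = 0.0334) and Pdia6 higher without library 6 (0.13, adjusted p = 0.0356). All 5 were higher in young MSCs, as were 41.6% of all genes. Their differences ran from 0.10 ± 0.04 for P4hb to 1.12 ± 0.07 for Creld2, and Pdia6 differed by 0.98 relative to chromosome 12.

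Among the 5 co-chaperones and BiP partners, Sdf2l1 and Manf rose after co-culture and the J-domain proteins did not pass the threshold. Thus 2 of the 5 genes were called, against 41.6% of all genes. Sdf2l1, which works with the J-domain protein Dnajb11, had 585 to 685 (median 651) normalized counts in old, 824 to 1296 (median 938) in rejuvenated old and 880 to 1079 (median 919) in young MSCs. Rejuvenated old MSCs thus reached the range of young MSCs, with changes of 0.61 ± 0.08 (adjusted p = 2.69e-06) and 0.56 ± 0.08 (adjusted p = 8.95e-07), and 0.62 and 1.31 relative to chromosome 16. Manf, a secreted protein that binds BiP, had 2320 to 2502 (median 2380) in old, 2990 to 3906 (median 3145) in rejuvenated old and 5436 to 6464 (median 5773) in young MSCs. It rose by 0.45 ± 0.05 (adjusted p = 5.96e-07) and stood 1.29 ± 0.05 higher in young MSCs (adjusted p = 3.01e-16), without overlap. Dnajc3 (p58IPK), an inhibitor of PERK and a co-chaperone, had 2403 to 2732 (median 2640) in old, 2493 to 2893 (median 2757) in rejuvenated old and 5022 to 5668 (median 5573) in young MSCs. Old and rejuvenated old MSCs overlapped (0.06 ± 0.04, adjusted p = 0.226), and young MSCs lay above both (1.06 ± 0.04, adjusted p = 4.89e-17). Dnajb9, a co-chaperone of BiP at IRE1, differed by 0.05 ± 0.07 (adjusted p = 0.562) and Dnajb11 by 0.05 ± 0.04 (adjusted p = 0.364). Young MSCs were higher in Dnajb9 by 0.52 ± 0.07, and by 0.97 relative to chromosome 12. Dnajb11 was lower in young than in old MSCs (-0.93 ± 0.04, adjusted p = 5.74e-16), and stood at -0.18 relative to chromosome 16.

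Of the 5 tested genes of ER-associated degradation, 1 rose and 1 fell after co-culture, where 21.0% of all genes rose and 20.6% fell. Herpud1, a membrane protein that organizes the degradation complex, had 1363 to 1498 (median 1420) normalized counts in old, 1650 to 2424 (median 1903) in rejuvenated old and 4208 to 5064 (median 4654) in young MSCs. It rose by 0.47 ± 0.07 (adjusted p = 1.39e-05) and stood 1.71 ± 0.07 higher in young MSCs (adjusted p = 2.57e-16), with no overlap, and its promoter was the only one of the arm's 20 with a C/EBP-ATF element. Sel1l and Syvn1, the adaptor and the ubiquitin ligase of the complex, and Derl1, its channel, differed by -0.04 ± 0.03, 0.07 ± 0.04 and -0.01 ± 0.04 after co-culture, with adjusted p-values of 0.305, 0.137 and 0.844. Syvn1 was called without rejuvenated old library 4 (0.10, adjusted p = 0.043). Edem1, which routes glycoproteins to degradation, fell after co-culture (-0.21 ± 0.06, adjusted p = 0.00743) with overlapping libraries and was lower in young MSCs too (-0.24 ± 0.06, adjusted p = 0.00064). In young MSCs Derl1 and Syvn1 were higher by 0.55 ± 0.04 and 0.33 ± 0.04, and Sel1l was lower (-0.21 ± 0.03), although it stood at 0.25 relative to chromosome 12.

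**Figure D3:**
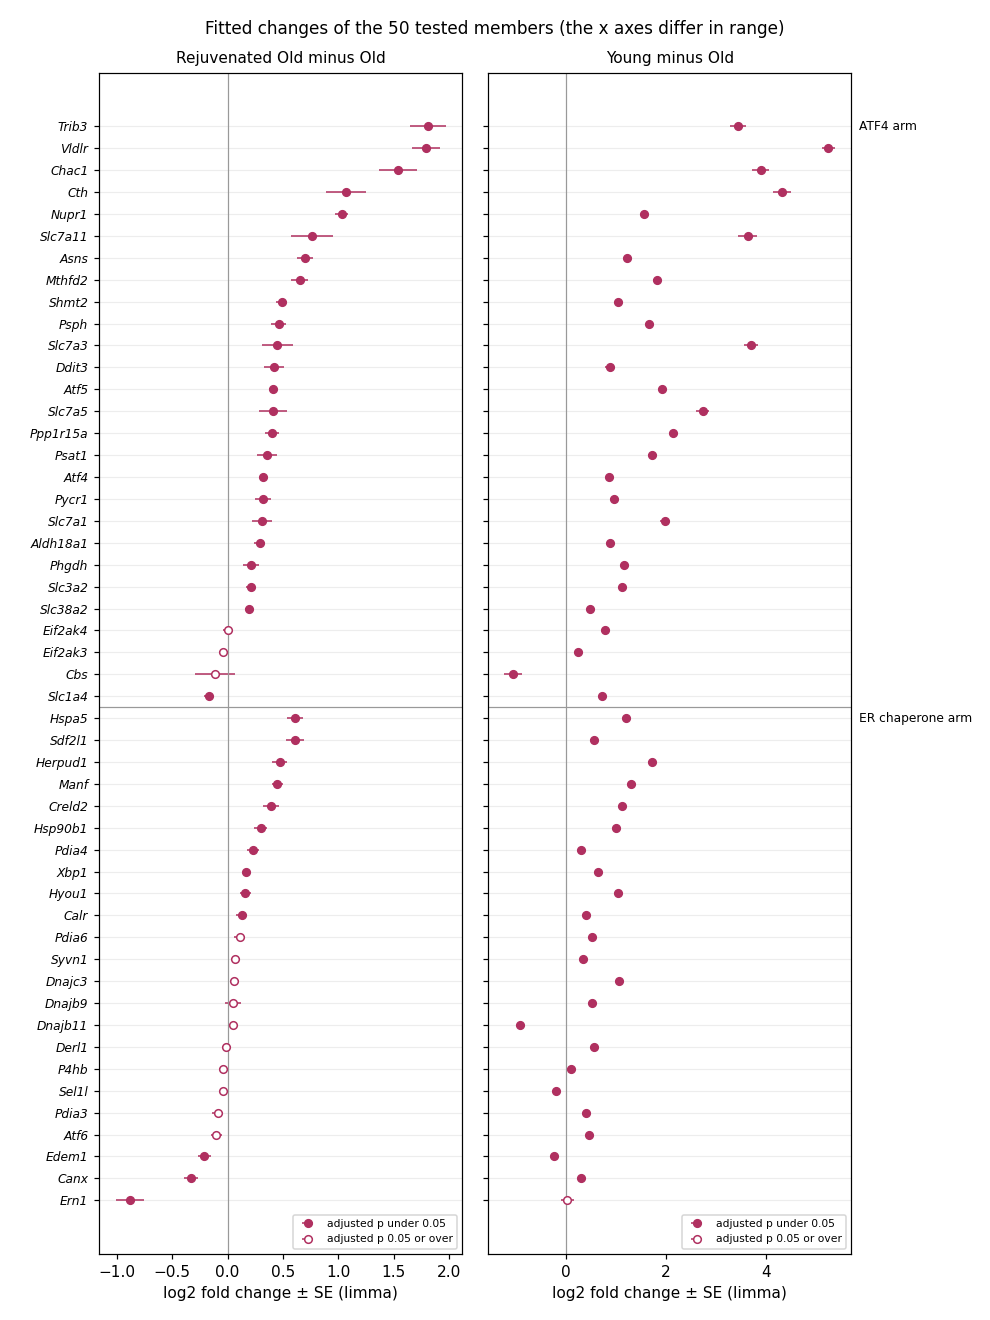
Points give the fitted log2 fold change and bars its SE for the 50 tested genes, ordered by the change after co-culture within each arm, for rejuvenated old minus old MSCs (left) and young minus old MSCs (right), with filled points for an adjusted p under 0.05. On the left 33 genes are called higher and 4 lower, on the right 45 and 4, and the right axis spans a wider range.

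Rejuvenated old MSCs remained apart from young MSCs. In the ATF4 arm 26 of 27 genes were lower in rejuvenated old than in young MSCs and Cbs was higher (median log2 fold change -0.94), and in the ER chaperone arm 18 of 23 were lower and 2 higher (median -0.49), while 85.6% of all genes were called (44.1% higher and 41.5% lower, median 0.03). The difference was -1.64 ± 0.16 for Trib3, -2.35 ± 0.17 for Chac1, -3.25 ± 0.18 for Cth and -3.46 ± 0.13 for Vldlr (adjusted p at most 3.4e-09), so these genes, though raised, stayed far under the young level. Nupr1 (-0.52 ± 0.06) and Asns (-0.52 ± 0.07) came closer. Sdf2l1, Pdia4 and Edem1 were not called, with differences of 0.04 ± 0.08 (adjusted p = 0.624), -0.07 ± 0.05 (adjusted p = 0.219) and 0.04 ± 0.06 (adjusted p = 0.566). Relative to chromosome 16 Sdf2l1 was -0.72, and relative to chromosome 7 Nupr1 was 0.04. Pdia4 was called lower than in young MSCs when libraries were scaled to the same total (-0.16, adjusted p = 0.00651), by quantile normalization (-0.14, adjusted p = 0.0122) or without rejuvenated old library 3 (-0.11, adjusted p = 0.0412). The genes of this comparison come from the same 18 libraries as the others, so it is not independent of them.

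The rejuvenated old libraries varied most in the ATF4 arm. The median coefficient of variation of its genes was 13.6% in rejuvenated old MSCs, 6.97% in young and 5.08% in old MSCs, where all genes had medians of 8.13%, 6.42% and 6.36%. For the ER chaperone arm it was 7.58%, 6.38% and 3.93% in the same order. Rejuvenated old library 1 was the highest of its group for 19 of 27 ATF4 arm genes and library 3 for 20 of 23 ER chaperone arm genes, and old library 2 was the highest for 17 of 27 ATF4 arm genes. Trib3 shows the pattern, with 914, 538, 891, 347, 596 and 558 normalized counts in rejuvenated old libraries 1 to 6. Libraries 1 and 3 are the high ones, and the lowest, library 4, still lies above the highest old value of 223. Hspa5 had 35056, 32015, 46020, 30466, 36135 and 33920 in the same libraries, with library 3 alone standing out.

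When old library 2 and rejuvenated old libraries 1 and 3 were left out together, a choice made after seeing the data, 22 ATF4 arm genes were still higher in rejuvenated old than in old MSCs and 1 lower. In the ER chaperone arm 8 were higher and 3 lower. Over all genes 37.1% were then called (18.3% higher and 18.8% lower). The changes were then 1.60 for Trib3, 1.79 for Vldlr, 1.38 for Chac1, 0.79 for Cth, 0.46 for Slc7a11 and 0.52 for Hspa5. Phgdh (0.11, adjusted p = 0.161), Calr (0.08, adjusted p = 0.239) and Hyou1 (0.10, adjusted p = 0.119) were no longer called. Slc7a5 went down to 0.21 and Slc7a3 to 0.29, both still called.

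**Figure D4:**
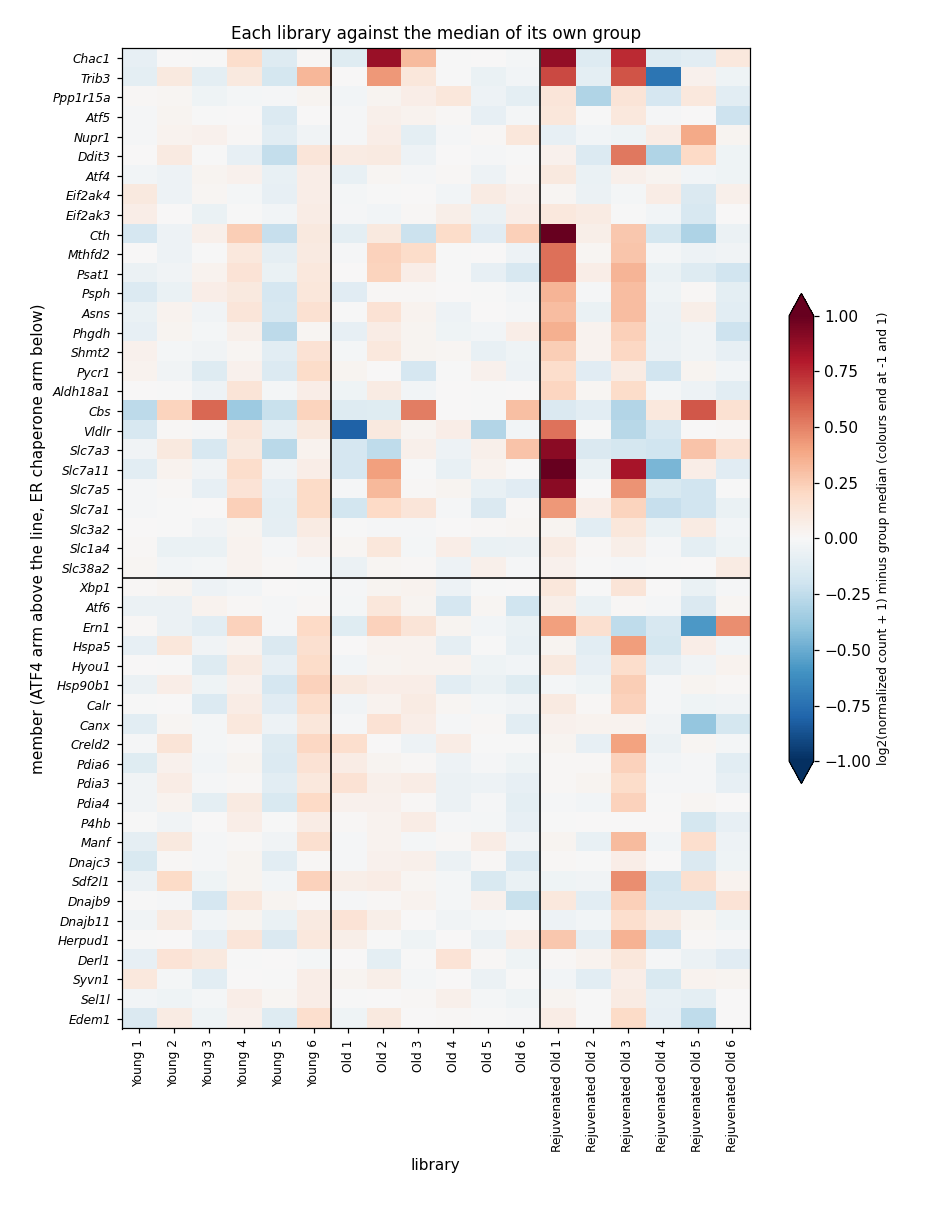
Colours give log2(normalized count + 1) of each library minus the median of its own group, for 27 ATF4 arm genes above the horizontal line and 23 ER chaperone arm genes below it, with black vertical lines between young, old and rejuvenated old libraries. Red columns stand at rejuvenated old library 1 above the line and at library 3 on both sides of it, and at old library 2 for several ATF4 arm genes.

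Promoter elements and changes can be set side by side. The 8 ATF4 arm genes with a C/EBP-ATF element in the window (Trib3, Chac1, Nupr1, Asns, Pycr1, Slc7a11, Slc1a4 and Vldlr) had a median log2 fold change of 0.90 after co-culture and 2.50 in young against old MSCs. The 16 with a promoter but no match had medians of 0.32 and 1.08. Slc1a4, the one gene of the arm that fell, was among those with the element. In the ER chaperone arm the 8 tested genes with the ER stress element had medians of 0.12 and 0.76, and the 11 without had 0.05 and 0.29. These medians are descriptions over few genes and were not tested.

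Per kilobase of annotated exon, with the exons of all transcripts merged, chaperones and isomerases of the ER lumen were the most abundant members. The merged length can exceed that of the transcript expressed, which lowers the value of genes with many or long transcripts. Hsp90b1 lay above the other members in every group, with 10600 normalized counts per kilobase in old, 13070 in rejuvenated old and 21220 in young MSCs. Hspa5 followed it in young MSCs (14250), whereas in old MSCs (6178) Pdia3, Calr and P4hb also lay above Hspa5. Chac1 and Trib3 were at 84.7 and 86.0 per kilobase in old MSCs, 251 and 316 in rejuvenated old MSCs and 1229 and 941 in young MSCs. Slc7a11, with 9848 bases of merged exons, was the lowest on this scale in old MSCs, at 4.32 per kilobase, against 54.4 in young MSCs.

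Neighbouring pathways were read from lists that hold none of the members. Their counts stand against 21.0% of all genes higher and 20.6% lower after co-culture, and 41.6% higher and 44.1% lower in young than in old MSCs. Of 20 cytosolic aminoacyl-tRNA synthetases, which charge tRNA and include ATF4 targets, 15 rose after co-culture and 0 fell, with 17 higher and 2 lower in young MSCs. Gars changed by 0.37 ± 0.05 (adjusted p = 3.33e-06) and Vars by 0.32 ± 0.04 (adjusted p = 9.61e-07). Of 20 other ATF4 targets and partners, 10 rose and 3 fell, led by the glutamine transporter Slc38a1 (1.21 ± 0.19, adjusted p = 2.71e-05) and Ndrg1 (1.17 ± 0.13, adjusted p = 2.83e-07), with 13 higher and 6 lower in young MSCs. Slc38a1 ran from 62.5 to 89.4 normalized counts in old MSCs, from 115 to 415 in rejuvenated old MSCs and from 4480 to 4707 in young MSCs, with no overlap. Of 12 genes of eIF2 and its regulators, 5 rose and 2 fell (Eif2s3x with -0.27 ± 0.09, adjusted p = 0.0175, and Gcn1l1, the activator of GCN2, with -0.19 ± 0.04, adjusted p = 0.00124), with 5 higher and 5 lower in young MSCs. Of 14 other one-carbon and proline enzymes 6 rose and 2 fell, but 9 were lower and 4 higher in young MSCs. Among these, the proline-catabolic enzyme Aldh4a1 fell by 0.48 on the log2 scale after co-culture and Amt of the glycine cleavage system rose by 0.43.

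The ER lists moved in both directions after co-culture, with 37.5% to 58.8% of their genes called, against 41.6% of all genes. Of 17 translocon and signal peptidase genes 4 rose (Ssr4, 0.25) and 6 fell (Srpr, -0.25), whereas 13 were higher and 2 lower in young MSCs. Of 16 genes of N-glycosylation and glycoprotein quality control 1, Mogs (0.41), rose and 5 fell, Rpn2 with -0.36, and 6 were higher and 10 lower in young MSCs. Of 18 other ER oxidoreductases and foldases 8 rose and 2 fell, led by Ero1l (1.15 ± 0.06, adjusted p = 3.67e-12), which reoxidizes the disulfide isomerases, and Prdx4 (0.56 ± 0.04, adjusted p = 5.73e-10). In young MSCs 7 of these 18 were higher and 7 lower than in old MSCs. Ero1l ran from 622 to 835 normalized counts in old, from 1404 to 1772 in rejuvenated old and from 1829 to 2295 in young MSCs, without overlap. Of 16 other genes of ER-associated degradation 2 rose and 7 fell, Erlec1 with -0.24, and 5 were higher and 8 lower in young MSCs. Of 20 proliferation genes 8 rose and 0 fell after co-culture, while 4 were higher and 12 lower in young than in old MSCs.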

How the data were processed

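The 18 libraries (TruSeq Stranded mRNA) came from young, old and rejuvenated old MSCs, with 6 cultures a group. Per the submitters' processing notes and the study's methods, the authors used HISAT2, StringTie, featureCounts and DESeq2 with the mm10 build. Versions, annotation, strand setting and filters are not given in the sources used here. Each deposited value is a signal, the normalized count of a gene in 1 library, that is its reads over that library's size factor, and replicates were kept apart. Division by one step per library gave whole reads for 100% of values within 0.01 of a read, so that 22936251 to 29559194 reads per library were recovered. Within each group, all 15 pairs of libraries differed by more than sampling noise (chi-square per degree of freedom of 2.54 to 22.3).

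Tests used limma 3.58.1 (R 4.3.3) on log2(value + 1), with 3 group means and a prior variance following the mean, over 14353 genes with a mean of at least 10, Benjamini-Hochberg adjusted over all of them and called under 0.05. Young, old and rejuvenated old MSCs were compared pairwise. Members were counted by direction beside all genes, and no list was tested. edgeR 4.0.16 (quasi-likelihood) and DESeq2 1.42.0 on the recovered reads called 6213 and 6345 genes between rejuvenated old and old MSCs, against 5971 with limma. The scripts were tested on simulated data. Tables and figures used Python 3.11.15, numpy 2.4.6, pandas 2.3.3 and matplotlib 3.10.9.

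Members and lists were chosen with earlier results of these data known. Full values are given for 8 regulators and Hspa5, and in each arm for the 8 called genes with the largest change after co-culture and the 6 with the largest change between young and old MSCs. Genes outside the members are at most 2 per list, by the largest called change after co-culture, apart from cell markers. Other members and library values were named after they were seen. Positions are from RefSeq for GRCm38.p6, and exon lengths and overlaps from GENCODE M21. Alternatives covered the pseudocount, the filter, the scaling, fits of 2 groups, the prior variance, a replicate block, the count tests, stricter calls, each library left out in turn and, added later, 3 libraries left out together.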

Additional observations from a re-analysis of the deposited data

Results flagged for a closer look

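In 150 sets of 6 libraries (50 genes in 3 groups), the highest or lowest library was tested with Dixon's gap ratio at its 95% limit. This limit was passed 17 times (11.3%), and chance passes it in about 1 in 20 sets, which is 7.5 of 150. The genes within a library are not independent.

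Old library 2 was the high one for 5 genes of the ATF4 arm. It had 223 normalized counts of Trib3 (the others 156.5 to 177.7), 218 of Chac1 (109.7 to 148.7), 3020 of Aldh18a1 (2782 to 2868), 1055 of Slc7a5 (782.1 to 861.7) and 55.1 of Slc7a11 (36.6 to 42.1). Rejuvenated old library 1 was the high one for 3 genes of this arm, with 194 of Cth (63.3 to 95.1), 272 of Slc7a3 (126.5 to 176.9) and 689 of Vldlr (390.1 to 476.4). Rejuvenated old library 3 was the high one for 5 genes of the ER chaperone arm, with 46020 of Hspa5 (30466 to 36135), 42664 of Hsp90b1 (34893 to 36696), 13337 of Pdia4 (11152 to 11530), 14103 of Pdia6 (11149 to 12130) and 2260 of Creld2 (1608 to 1737).

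The remaining values were single ones. Nupr1 was high in rejuvenated old library 5 (1157, against 839.3 to 932.9), Atf5 was low in young library 5 (9341, against 10170 to 10450), Psph was low in old library 1 (441, against 468.5 to 483.5) and Dnajb9 was low in old library 6 (620, against 715.3 to 743.6). What sets these libraries apart was not tested.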

How the results depend on the processing

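Over 32 settings each, other than a limit on the fold change, the number of called genes ran from 11 to 14 of 23 (ER chaperone arm) and from 20 to 24 of 27 (ATF4 arm) between rejuvenated old and old MSCs, from 21 to 22 and 26 to 27 between young and old MSCs, and from 20 to 21 and 26 to 27 between rejuvenated old and young MSCs. Leaving out each library in turn gave 12 to 14, 23 to 24, 22 to 22, 27 to 27, 20 to 21 and 27 to 27 in this order. With a further limit of 0.5 on the absolute log2 fold change, 3 (ER chaperone arm) and 8 (ATF4 arm) genes were called after co-culture. In the same order, 13 and 25 were called for young against old, and 12 and 24 for rejuvenated old against young MSCs. The counts fell since small changes were then left out. The share of all genes past this limit was not counted. With signs ignored, changes over all genes had medians of 0.15, 0.6 and 0.58 in these comparisons. Relative to the median of its chromosome, Nupr1 turned to 0.04 in rejuvenated old against young MSCs, and Sel1l to 0.25 in young against old and -0.29 in rejuvenated old against young MSCs.

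Same-numbered libraries were treated as unpaired, and the labels do not say whether they share a preparation. Of 18 pairs across groups 0 had a correlation of deviations over 0.1 (-0.152 to 0.0736), and 1 library correlated best with its own number. Low correlations cannot show how the cultures were set up. With the replicate number as a block, 12 ER chaperone arm and 24 ATF4 arm genes were called between rejuvenated old and old MSCs, Calr (adjusted p = 0.0533) being lost, and the other arm counts were 22, 27, 20 and 27. With this block, 5769 of all 14353 genes were called between rejuvenated old and old MSCs. Between young and old MSCs 12219 were called, and between rejuvenated old and young MSCs 12210. Every member but Derl3 had at least 18 reads in every library.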
